A study of Mus musculus with 4 samples.

Results

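The replication-dependent histone genes of mouse chromosome 13 were examined in ATAC-seq peaks of 4 lung tumour samples. Members were the protein-coding histone genes lying between 21.7 and 23.8 Mb of chromosome 13 in mm10, 52 of the 21887 protein-coding genes placed in the annotation. They code for the linker histone H1 (6 genes) and the core histones H2A (12), H2B (14), H3 (9) and H4 (11). Peaks and regions that touched a gene or its 2 kb flanks were assigned to it, and 32 of the 61972 regions in the authors' merged set met that rule. Gene names are the current RefSeq symbols, with the older Hist1h symbol in parentheses where a gene is first described.

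ATAC-seq marks open chromatin by letting a transposase insert adapters into accessible DNA. Tumours of genotype KrasLA1/+;Dicer1S2D/+ were set against those of genotype KrasLA1/+, with 2 samples of each, all from C57B6J mice aged 55 weeks. KrasLA1, carried by every mouse, is a latent oncogenic allele that becomes active by spontaneous recombination, so the cells that start a tumour are not chosen by a promoter or a Cre. Dicer1S2D is an allele of Dicer1, the ribonuclease that processes microRNAs, altered to mimic its phosphorylated form, and those mice carried 1 copy. The series title places the comparison in a study of phosphorylated nuclear DICER1, open chromatin and gastric cell fate in lung adenocarcinoma. Each genotype had 1 female (replicate 1) and 1 male (replicate 2), and sex and replicate number therefore divide the libraries in the same way. Each sample was 40-50 mg of frozen tumour, and the sources used here do not say how many tumours went into it.

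Replication-dependent histones package newly copied DNA, and their genes are transcribed mainly during DNA replication. Most lack introns, and their mRNAs end in a conserved stem-loop instead of a poly(A) tail. In mammals most of these genes lie in 1 large cluster, gathered in a nuclear compartment called the histone locus body, where many H2A and H2B genes sit back to back and share a promoter region. H1 is the linker histone that binds DNA between nucleosomes, while H2A, H2B, H3 and H4 form the nucleosome core.

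The peak set recorded only where a peak was called, without height, score or read count, so the depth is unknown and an absent peak is one that missed an unstated threshold. In such bulk samples, fewer cells with open chromatin and less opening per cell cannot be told apart. The KrasLA1;Dicer1S2D libraries held 50282 and 34767 peaks, and the KrasLA1 libraries 41621 and 44654. Peaks covered 25.0 and 19.0 Mb in KrasLA1;Dicer1S2D libraries, against 22.7 and 27.9 Mb in KrasLA1 libraries. Of the lung markers checked, 6 of 6 alveolar type 2, 5 of 5 alveolar type 1 and 5 of 5 airway genes had a peak within 2 kb in all 4 libraries. Of the other markers, 2 of 4 endothelial, 2 of 5 fibroblast and 3 of 5 myeloid genes did; Cdh5, Kdr and Col1a2 had no peak in any library, and Pdgfrb, Acta2, Csf1r and Lyz2 lacked one in at least 1. Of the lymphocyte markers reported here, Cd3e and Cd8a had no peak in any library, and Cd79a and Cd4 had one in 3.

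The 300-base promoter windows below show what the open and the unmarked histone genes look like in sequence. They run from 250 bases before to 50 bases after the annotated start, 5′ to 3′ on the strand of the gene, from RefSeq for GRCm38.p6, the assembly behind mm10; 49 of the 52 genes were matched. Capitals mark 4 motifs searched on both strands: CCAAT (or ATTGG), the letters bound by NF-Y; TATAAA (or TTTATA), the TATA box; ATTTGCAT (or ATGCAAAT), the octamer bound by POU2F1; and GGTCCG (or CGGACC), the core recognised by the H4 gene factor HINFP. None of these motifs contains another, and matches that shared letters were counted for each motif. H2bc12 (chr13:22035571-22035870, plus strand) is from 1 of the 6 divergent H2A-H2B pairs that were open in all 4 libraries. It holds an octamer, which several other open pairs, such as H2ac22-H2bc22, lack. H1f4 (chr13:23622509-23622808, minus strand) lay under one of the widest regions, and H3c2 (chr13:23752095-23752394, plus strand) is 1 of the 2 H3 genes whose start was inside a peak in all 4. H4c11 (chr13:21734784-21735083, plus strand) was open in all 4, while H4c12 (chr13:21750504-21750803, minus strand) carried the region present in KrasLA1 libraries alone. H4c8 (chr13:23530794-23531093, plus strand), H2bc23 (chr13:21810150-21810449, minus strand) and H4c17 (chr13:21811496-21811795, plus strand) had no peak in any library.
H2bc12: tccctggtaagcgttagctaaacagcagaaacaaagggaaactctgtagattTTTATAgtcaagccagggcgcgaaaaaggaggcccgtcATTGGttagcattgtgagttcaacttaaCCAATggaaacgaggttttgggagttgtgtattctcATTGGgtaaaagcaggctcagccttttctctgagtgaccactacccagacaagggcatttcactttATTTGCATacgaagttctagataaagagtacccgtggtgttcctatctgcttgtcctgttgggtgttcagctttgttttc
H1f4: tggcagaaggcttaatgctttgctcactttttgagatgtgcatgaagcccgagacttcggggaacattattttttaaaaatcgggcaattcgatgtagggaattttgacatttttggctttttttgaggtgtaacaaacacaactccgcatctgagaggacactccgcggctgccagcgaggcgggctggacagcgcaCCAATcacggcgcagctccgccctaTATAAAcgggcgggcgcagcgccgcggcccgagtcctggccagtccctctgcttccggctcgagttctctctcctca
H3c2: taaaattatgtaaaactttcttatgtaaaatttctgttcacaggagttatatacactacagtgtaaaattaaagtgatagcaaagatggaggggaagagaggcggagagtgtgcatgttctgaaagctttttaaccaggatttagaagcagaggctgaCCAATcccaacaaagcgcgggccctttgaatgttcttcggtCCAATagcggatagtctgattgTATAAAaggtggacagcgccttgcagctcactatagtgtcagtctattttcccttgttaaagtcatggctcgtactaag
H4c11: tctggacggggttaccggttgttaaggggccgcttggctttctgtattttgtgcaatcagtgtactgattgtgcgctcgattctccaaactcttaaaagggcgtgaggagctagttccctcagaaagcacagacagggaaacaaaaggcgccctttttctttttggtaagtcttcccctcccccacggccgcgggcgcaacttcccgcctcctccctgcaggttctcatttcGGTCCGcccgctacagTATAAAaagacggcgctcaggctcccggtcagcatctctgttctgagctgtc
H4c12: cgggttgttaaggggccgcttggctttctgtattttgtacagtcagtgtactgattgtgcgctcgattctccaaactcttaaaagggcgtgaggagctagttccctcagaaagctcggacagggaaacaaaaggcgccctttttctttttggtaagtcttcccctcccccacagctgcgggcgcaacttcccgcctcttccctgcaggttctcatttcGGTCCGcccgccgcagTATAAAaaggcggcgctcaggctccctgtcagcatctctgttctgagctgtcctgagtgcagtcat
H4c8: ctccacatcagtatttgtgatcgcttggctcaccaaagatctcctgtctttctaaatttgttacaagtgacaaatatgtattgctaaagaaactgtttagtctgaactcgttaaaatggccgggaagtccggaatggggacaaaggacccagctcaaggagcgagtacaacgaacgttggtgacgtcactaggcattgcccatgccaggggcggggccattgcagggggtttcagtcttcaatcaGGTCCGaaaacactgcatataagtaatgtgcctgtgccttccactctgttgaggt
H2bc23: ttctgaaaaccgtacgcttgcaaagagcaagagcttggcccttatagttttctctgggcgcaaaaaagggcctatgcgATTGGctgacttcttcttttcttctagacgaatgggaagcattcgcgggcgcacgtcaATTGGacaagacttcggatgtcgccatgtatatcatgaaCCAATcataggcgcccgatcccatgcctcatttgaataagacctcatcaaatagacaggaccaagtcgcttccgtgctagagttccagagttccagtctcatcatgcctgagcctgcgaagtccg
H4c17: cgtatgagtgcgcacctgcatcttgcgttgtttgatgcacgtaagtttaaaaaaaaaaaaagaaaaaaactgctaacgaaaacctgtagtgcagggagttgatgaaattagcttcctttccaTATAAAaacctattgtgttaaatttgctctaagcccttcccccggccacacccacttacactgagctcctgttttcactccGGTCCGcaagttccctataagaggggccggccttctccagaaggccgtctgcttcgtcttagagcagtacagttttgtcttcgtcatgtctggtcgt

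Each of these motifs was found in a larger share of the histone windows than of all promoter windows, a difference that was not tested. CCAAT was found in 41 of 49 windows (83.7%), against 39.0% of the 17492 RefSeq promoter windows of all genes. The windows of all 6 H1, 12 H2A, 13 H2B and 7 H3 genes matched it, and those of 3 of 11 H4 genes. TATAAA was found in 29 of 49 windows (59.2%), against 13.3% of all genes' windows, with matches in 4 of 6 H1, 7 of 12 H2A, 6 of 13 H2B, 4 of 7 H3 and 8 of 11 H4 windows. GGTCCG was found in 12 of 49 (24.5%), against 10.6% of all, and 10 of the 12 belonged to H4 genes. The octamer was found in 8 of 49 (16.3%), against 1.71% of all, in 4 H2A and 4 H2B windows; the windows of a divergent pair overlap, so 1 match can count for both genes. Those 8 windows were all among the 27 genes whose start was inside a peak in every library, and 0 of the 14 genes whose start was never inside a peak had one. The 14 were 3 H1, 3 H2A, 3 H2B, 1 H3 and 4 H4 genes, and no H1, H3 or H4 window held an octamer. The H2A and H2B genes among the 14 form the 3 divergent pairs without a peak. Motif and family were therefore not separated in these counts or in those that follow. CCAAT was present in 24 of the 27 windows and in 11 of the 14, TATAAA in 19 of the 27 and 5 of the 14, and GGTCCG in 4 of the 27 and 4 of the 14; no test was run on these counts. A match to these letters is a description and shows no binding.

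Across the cluster, most genes had an accessible site in every tumour. A peak within 2 kb was present in 37 and 37 of the 52 genes in KrasLA1;Dicer1S2D tumours, against 41 and 36 in KrasLA1 tumours. The mean was 37 ± 0 genes in KrasLA1;Dicer1S2D tumours and 38.5 ± 3.54 in KrasLA1 tumours (SD, n = 2 each), and the groups overlapped (difference -1.5, p = 1 in a two-sided exact permutation test). A comparison of 2 and 2 libraries cannot give a p below 0.333, and it measures only the spread between these mice. In all, 34 of the 52 genes (65.4%) had a peak in all 4 libraries, 8 in some and 10 (19.2%) in none. Over all protein-coding genes, 59.4% had a peak in all 4 libraries and 30.8% in none. Histone genes are short. Of the 1529 other protein-coding genes under 1 kb, 3.34% had a peak in all 4 libraries and 95.4% in none. That set was chosen on length alone, and the kinds of genes in it were not examined.

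**Figure D1:**
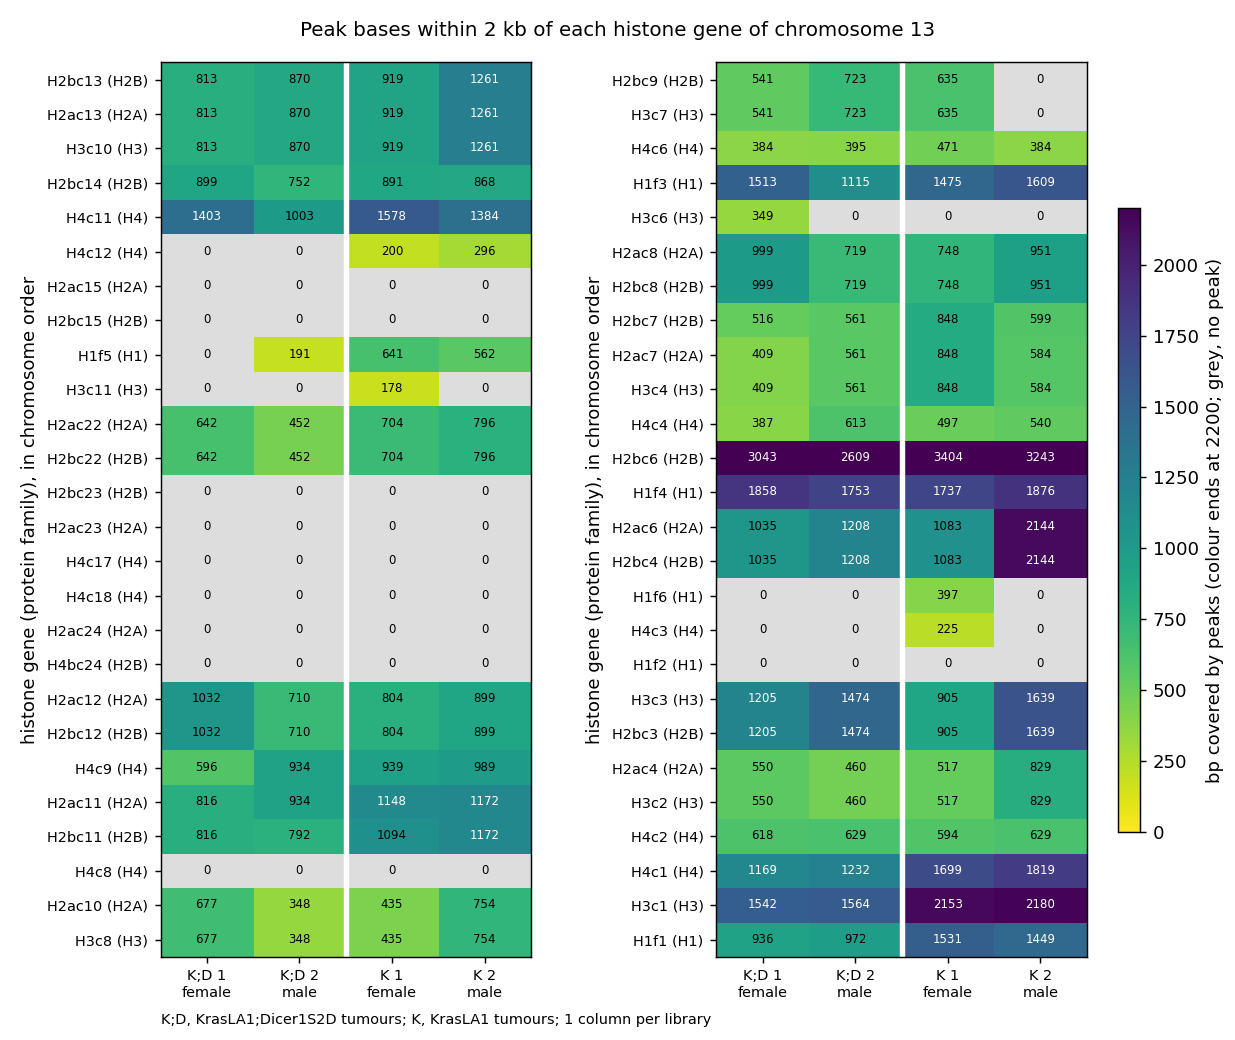
Bases covered by peaks within 2 kb of each of the 52 histone genes (rows, in chromosome order in both panels) in the KrasLA1;Dicer1S2D libraries (K;D, left columns) and the KrasLA1 libraries (K, right columns); numbers are bp and grey marks no peak. A block of 6 genes from H2bc23 to H4bc24 is grey in all 4 libraries, H4c12 is coloured in the KrasLA1 columns alone, and neighbouring genes repeat a value because they share a peak.

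The length of open chromatin at the cluster was shorter in KrasLA1;Dicer1S2D tumours as a sum, and overlapped between genotypes as a share of each library. Peaks covered 18733 and 16979 bp of the merged gene windows in KrasLA1;Dicer1S2D tumours, against 20996 and 22448 bp in KrasLA1 tumours. The groups did not overlap, and the difference of -3866 bp had the smallest p this design allows (two-sided exact permutation test, p = 0.333). As a share of all bases under peaks in the same library, the windows held 0.0751% and 0.0895% in KrasLA1;Dicer1S2D tumours, against 0.0926% and 0.0806% in KrasLA1 tumours. On that scale the groups overlapped (exact permutation test, p = 0.667). The median covered length per histone gene was 607 and 587 bp in KrasLA1;Dicer1S2D tumours and 704 and 775 bp in KrasLA1 tumours. Over all protein-coding genes it was 667 and 568 bp in KrasLA1;Dicer1S2D tumours and 663 and 750 bp in KrasLA1 tumours.

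Most regions at the cluster took in a gene start, and 5 of the 32 held none of the 49 starts. The annotated start was inside a peak at 30 and 29 of 49 histone genes in KrasLA1;Dicer1S2D tumours, against 32 and 32 in KrasLA1 tumours, which did not overlap (difference -2.5, exact permutation test, p = 0.333). Over all genes the share of covered starts was 48.5% and 47.0% in KrasLA1;Dicer1S2D tumours and 48.3% and 50.1% in KrasLA1 tumours. The histone profile fell faster after the start than that of all genes. At 500 bp past the start, which lies beyond the end of the 28 histone genes under 500 bp long, 8.16% and 4.08% of histone starts had a peak in KrasLA1;Dicer1S2D tumours and 8.16% and 8.16% in KrasLA1 tumours. Over all genes it was 20.2% and 18.5% in KrasLA1;Dicer1S2D tumours and 23.2% and 26.1% in KrasLA1 tumours. At 1000 bp before the start the order was the other way, with 12.2% and 8.16% of histone starts in KrasLA1;Dicer1S2D tumours and 10.2% and 16.3% in KrasLA1 tumours, and between 2.68% and 3.78% over all genes in the 4 libraries. Neighbouring histone genes stand close together, and the same peak can be counted at 2 starts.

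**Figure D2:**
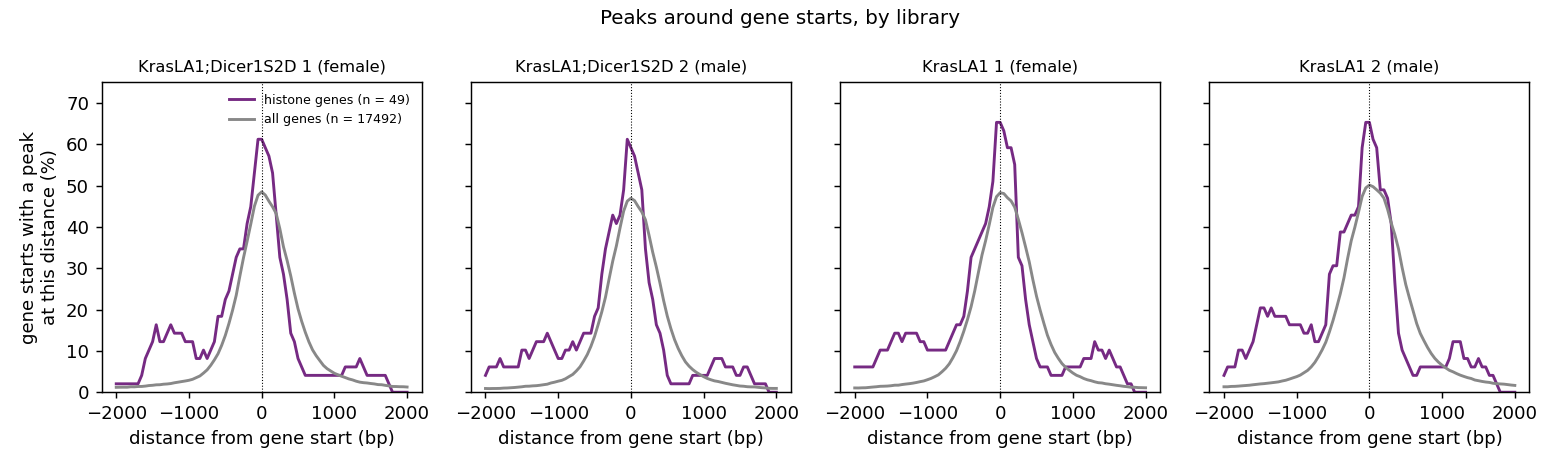
Percentage of gene starts with a peak at each distance from the start (x axis in bp, negative before the start), in 1 panel per library, for 49 histone genes of chromosome 13 (purple) and 17492 genes of the annotation (grey). The histone curve is highest 50 bp before the start, at 61.2% in both KrasLA1;Dicer1S2D libraries and 65.3% in both KrasLA1 libraries. It is above the grey curve there, and equally high at the start itself except in KrasLA1;Dicer1S2D replicate 2 (59.2%). At 500 bp past the start, a position beyond the end of 28 of the histone genes, it lies below the grey curve.

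Among the linker histone genes, H1f4 (Hist1h1e), H1f3 (Hist1h1d) and H1f1 (Hist1h1a) had their start inside a peak in all 4 libraries. H1f4 had 1858 and 1753 bp under peaks in KrasLA1;Dicer1S2D tumours, against 1737 and 1876 bp in KrasLA1 tumours. H1f3 had 1513 and 1115 bp in KrasLA1;Dicer1S2D tumours, against 1475 and 1609 bp in KrasLA1 tumours. The groups overlapped at both genes. H1f1 was the shortest of these 3 by mean covered length. It had 936 and 972 bp in KrasLA1;Dicer1S2D tumours, against 1531 and 1449 bp in KrasLA1 tumours, without overlap. Its window takes in part of the region over the H4c1 start. The region at the H1f1 start had 373 and 332 bp in KrasLA1;Dicer1S2D tumours, against 454 and 361 bp in KrasLA1 tumours, with overlap. H1f5 (Hist1h1b) had 0 and 191 bp in KrasLA1;Dicer1S2D tumours (mean 95.5), against a mean of 601.5 bp in KrasLA1 tumours with 562 bp in the lower of them, so the groups did not overlap. Its region (chr13:21779114-21779935) lay at the 3′ end of the gene, and the start was inside a peak in 0 of 4 libraries. H1f2 (Hist1h1c) had no peak in any library. The testis-restricted H1 gene H1f6 (Hist1h1t), which replaces other H1 proteins in developing sperm, had no peak in either KrasLA1;Dicer1S2D tumour, and 397 and 0 bp in KrasLA1 tumours. Its start was inside a peak in 0 of 4 libraries. The testis-restricted H2ac1 (Hist1h2aa) and H2bc1 (Hist1h2ba), which lie outside the interval, had no peak in any library.

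A peak was present in all 4 libraries at 9 of 12 H2A and 10 of 14 H2B genes. It was also present at 7 of the 8 H2A and H2B genes that belong to no annotated divergent pair. The 8 include H2ac6 and the adjoining H2bc4, which had no matched start, so that these could not be judged as a pair. Of 9 divergent H2A-H2B pairs, with starts 164 to 268 bp apart (median 180), 6 had both starts inside a single region in all 4 libraries and 3 had no peak in any. In each of the 6 open pairs, the whole stretch between the starts was covered in every library. The pair H2ac12-H2bc12 (Hist1h2ah, Hist1h2bk), whose window is printed above, had 1032 and 710 bp in KrasLA1;Dicer1S2D tumours, against 804 and 899 bp in KrasLA1 tumours. The pair H2ac22-H2bc22 (Hist1h2an, Hist1h2bp) had 642 and 452 bp in KrasLA1;Dicer1S2D tumours, against 704 and 796 bp in KrasLA1 tumours. The first pair overlapped between genotypes and the second did not. Over the 6 open pairs, both KrasLA1;Dicer1S2D widths lay below both KrasLA1 widths at 4 regions and the groups overlapped at 2, against 27.2% of all regions called in all 4 libraries in that direction. The unmarked pairs were H2ac15-H2bc15 (Hist1h2ak, Hist1h2bn), H2bc23-H2ac23 (Hist1h2bq, Hist1h2ao) and H2ac24-H4bc24 (Hist1h2ap, Hist1h2br). H4bc24 is the annotation's symbol for an H2B gene.

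Among H2A genes, H2ac6 (Hist1h2ac) had the longest mean covered length, 1035 and 1208 bp in KrasLA1;Dicer1S2D tumours, against 1083 and 2144 bp in KrasLA1 tumours. The high value was that of the KrasLA1 male alone. H2ac10 (Hist1h2af) had the shortest among H2A genes with a peak in all 4 libraries, 677 and 348 bp in KrasLA1;Dicer1S2D tumours, against 435 and 754 bp in KrasLA1 tumours, and part of that was the peak of its neighbour H3c8. The start of H2ac10 itself was inside a peak in 1 of 2 KrasLA1;Dicer1S2D tumours, the female, and 1 of 2 KrasLA1 tumours, the male. H2bc6 (Hist1h2be) had the longest covered length of the 52 genes, 3043 and 2609 bp in KrasLA1;Dicer1S2D tumours, against 3404 and 3243 bp in KrasLA1 tumours. H2bc6 is annotated over 37455 bp with 2 starts, both inside a peak in all 4 libraries, so its length is not comparable with that of the other genes. The lowest mean over the libraries among H2B genes open in all 4 was that of H2bc7 (Hist1h2bf), with 516 and 561 bp in KrasLA1;Dicer1S2D tumours, against 848 and 599 bp in KrasLA1 tumours. H2bc9 (Hist1h2bh) and the adjoining H3c7 (Hist1h3f) shared 1 region with 541 and 723 bp in KrasLA1;Dicer1S2D tumours, against 635 and 0 bp in KrasLA1 tumours, so the region was missing in the KrasLA1 male alone.

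H3 genes had peaks nearby, and few had one at their own start in every library. All 9 H3 genes had a peak within 2 kb in at least 1 library, and 6 had one in all 4. Of the 7 with an annotated start, 2 were inside a peak in all 4 libraries, H3c2 (Hist1h3b) and H3c8 (Hist1h3g). H3c2 had 550 and 460 bp in KrasLA1;Dicer1S2D tumours, against 517 and 829 bp in KrasLA1 tumours, shared with the H2A gene H2ac4 (Hist1h2ab). H3c1 (Hist1h3a) had the longest covered length among H3 genes, 1542 and 1564 bp in KrasLA1;Dicer1S2D tumours, against 2153 and 2180 bp in KrasLA1 tumours. Its window takes in the regions at the H4c1 and H1f1 starts. H3c8 had the shortest among H3 genes open in all 4 libraries, with the values given above for H2ac10, since both windows take in the same peaks. H3c11 (Hist1h3i) had no peak in KrasLA1;Dicer1S2D tumours, and 178 and 0 bp in KrasLA1 tumours. H3c6 (Hist1h3e) had 349 and 0 bp in KrasLA1;Dicer1S2D tumours and no peak in KrasLA1 tumours, in a region away from its start. The starts of H3c4 (Hist1h3d) and H3c10 (Hist1h3h) were each inside a peak in 1 library, the KrasLA1 female and the KrasLA1 male.

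H4 genes held the 1 region that followed genotype. H4c12 (Hist1h4k) had 0 and 0 bp in KrasLA1;Dicer1S2D tumours, against 200 and 296 bp in KrasLA1 tumours. The region (chr13:21750512-21750807) covered the start and the bases before it, nearly all within the window printed above. Both KrasLA1 peaks were narrow, beside a median width of 453 and 534 bp over all peaks of the same 2 libraries. H4c11 (Hist1h4j) shares with H4c12 a run of 72 identical bases in the printed windows, and had 1403 and 1003 bp in KrasLA1;Dicer1S2D tumours, against 1578 and 1384 bp in KrasLA1 tumours. The groups overlapped at H4c11. H4c1 (Hist1h4a) had the longest covered length of the family, 1169 and 1232 bp in KrasLA1;Dicer1S2D tumours, against 1699 and 1819 bp in KrasLA1 tumours, without overlap. H4c6 (Hist1h4f) had the shortest among H4 genes open in all 4, 384 and 395 bp in KrasLA1;Dicer1S2D tumours, against 471 and 384 bp in KrasLA1 tumours. H4c9 (Hist1h4i) had a region at its start with 0 and 364 bp in KrasLA1;Dicer1S2D tumours, against 315 and 257 bp in KrasLA1 tumours. H4c3 (Hist1h4c) had no peak in KrasLA1;Dicer1S2D tumours, and 225 and 0 bp in KrasLA1 tumours, from the same region as at H1f6. H4c8 (Hist1h4h), H4c17 (Hist1h4m) and H4c18 (Hist1h4n) had no peak in any library.

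**Figure D3:**
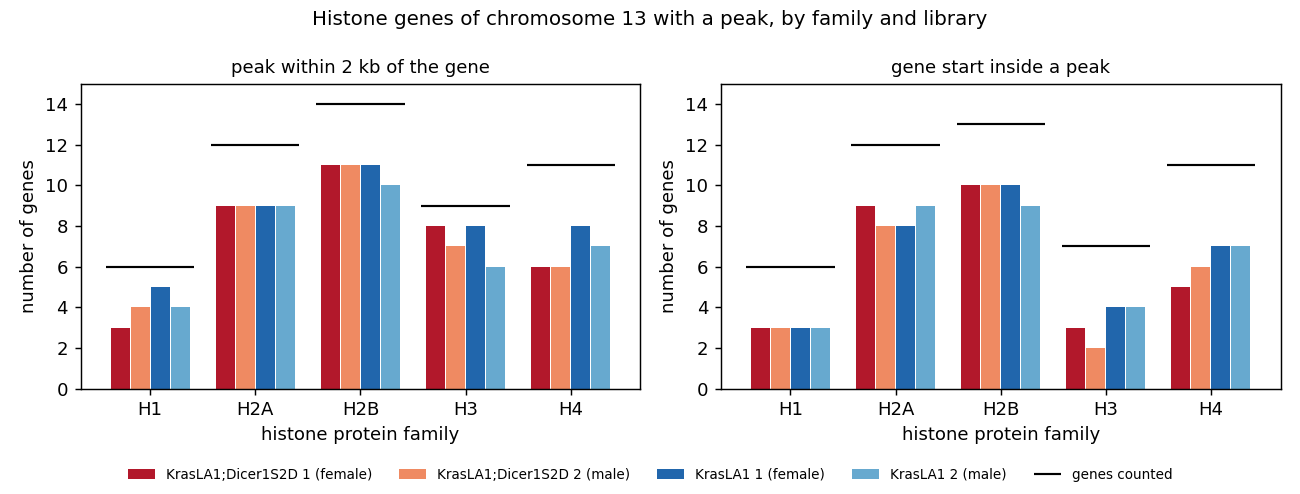
Number of histone genes of chromosome 13 with a peak within 2 kb (left) and with the gene start inside a peak (right), by protein family and library; bars are single libraries, with KrasLA1;Dicer1S2D in red tones and KrasLA1 in blue tones, and black lines give the genes counted. The start was inside a peak in all 4 libraries at 3 of 6 H1, 8 of 12 H2A, 9 of 13 H2B, 2 of 7 H3 and 5 of 11 H4 genes.

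By genotype, 0 of 32 regions at histone genes were present in the 2 KrasLA1;Dicer1S2D libraries and absent from both KrasLA1 libraries, against 0.596% of the 60713 autosomal regions. In the reverse direction, 1 of 32 histone regions, that of H4c12, was present in the 2 KrasLA1 libraries and absent from both KrasLA1;Dicer1S2D libraries, against 1.42% of autosomal regions. A count of 1 among 32 is too small to set apart from that background, and presence in 2 against 2 libraries has no test that could reach 0.05. The H4c12 region no longer met the rule when every library was held to its 34767 widest peaks. Without the KrasLA1 male the count in that direction was 5, without the KrasLA1;Dicer1S2D male it was 3, and without the KrasLA1 female it was 2. Without the KrasLA1;Dicer1S2D male, or without the KrasLA1 female, 1 region was called in KrasLA1;Dicer1S2D alone. Leaving out a library loosens the rule, and the share of all autosomal regions that meets the looser rule was not counted. These counts therefore cannot be set against the shares above.

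Most regions at histone genes were shared by all tumours. Of the 32, 21 (65.6%) were called in all 4 libraries, against 43.5% of autosomal regions. Their median width was 952 bp, against 789.5 bp for autosomal regions called in all 4. The autosomal set was not limited to regions at genes, unlike the histone regions, and regions at other gene starts were not counted apart. The 8 regions that held 2 or more histone starts were all called in every library, with a median width of 1037.5 bp. Of 19 regions with 1 start, 12 were called in every library, with a median width of 596 bp over the 19. Of 5 with none of the 49 starts, 1 was, and it held the other annotated start of H2bc6; their median width was 397 bp. The widest merged region at the cluster, 2151 bp (chr13:23683619-23685769), spanned H2ac6 and H2bc4 (Hist1h2bc), and the next lay over H1f4 and H2bc6 with 1891 bp (chr13:23620768-23622658). No test was run on these differences.

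Width was the 1 graded quantity in the peak set, and at no histone region did it pass the test between genotypes. In limma on log2 width, with each library's median width subtracted, 0 of 26402 regions passed an adjusted p of 0.05 (Benjamini-Hochberg), or 0% of regions, and 770 had an unadjusted p under 0.05. Of the 21 histone regions fitted, 0 passed at either level. Their log2 differences, KrasLA1;Dicer1S2D minus KrasLA1, ran from -0.40 to 0.29 with a median of -0.07, against a median of 0.04 over all regions; 12 were negative and 9 positive. Before centring, the median over all regions was -0.12 and over the histone regions -0.23. The lowest p was at the region over the H4c1 start (chr13:23760937-23762755), with 1169 and 1232 bp in KrasLA1;Dicer1S2D tumours, against 1699 and 1819 bp in KrasLA1 tumours, a log2 difference of -0.39 ± 0.21 (SE; limma, unadjusted p = 0.126, adjusted p = 0.999). In uncentred bases, both KrasLA1;Dicer1S2D widths lay below both KrasLA1 widths at 8 of the 21 regions, against 27.2% of all regions called in all 4 libraries. Both lay above at 0 of 21, against 3.66%.

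**Figure D4:**
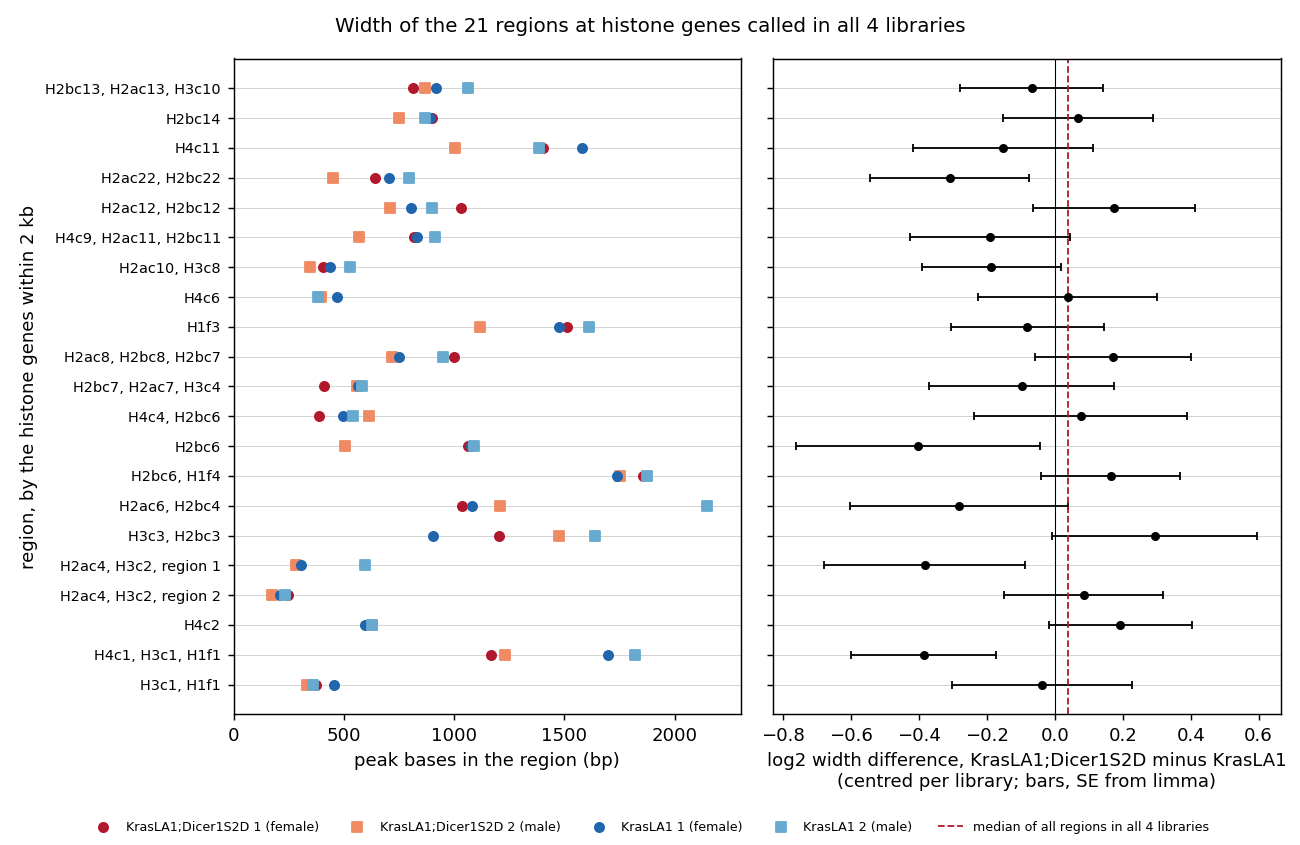
Left, bases under peaks (bp) in each library for the 21 regions at histone genes called in all 4 libraries, named by the genes within 2 kb; right, the log2 width difference of KrasLA1;Dicer1S2D minus KrasLA1 with its SE from limma, and the median of all 26402 regions as a dashed line. The differences run from -0.40 to 0.29, and the region of H4c1, H3c1 and H1f1 has both red points (1169 and 1232 bp) left of both blue points (1699 and 1819 bp).

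Of the 10 histone genes without a peak in any library, 6 formed a run of neighbours from H2bc23 to H4bc24 (chr13:21806412-21837530). Their promoter windows were the most alike of the cluster. The H2bc23 window printed above was identical to that of H4bc24 over all 300 bases, H4c17 and H4c18 shared a run of 285 bases, and H2ac23 and H2ac24 a run of 200. The windows of the 32 genes with a peak in all 4 libraries shared runs of 11 to 72 bases with their nearest relative (median 15), and 0 reached 100. H2ac15, H2bc15, H4c8 and H1f2 also had no peak, with longest shared runs of 11 to 28 bases. On chromosome 3, H3c14 and H3c15 (a shared run of 231 bases) and H2ac18 and H2ac19 (219 bases) likewise had no peak. H3c13 and H2bc18 on chromosome 3 and H4f16 on chromosome 6 also had no peak, with shared runs of 10, 10 and 9 bases. The best matches given for genes of these other clusters were all outside chromosome 13. Their runs are therefore not comparable with those among the chromosome 13 genes. Reads that match several places can be dropped before peaks are called, and the part of this in the missing peaks was not tested.

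Outside the cluster, histone genes and the machinery of histone mRNA gave the setting for these values. Of 13 histone genes in other clusters, 4 had a peak in all 4 libraries, 1 (H2bu2) in 3 libraries and 8 in none: H3c15, H2ac19, H2ac18, H3c14, H4c14, H3c13, H2bc18 and H4f16. Of 10 variant histone genes, 9 had a peak in all 4, and H1f10 in none. All 31 genes of the histone locus body and of histone mRNA synthesis, processing and deposition had a peak in all 4 libraries. Their median covered length was 1171 and 1048 bp in KrasLA1;Dicer1S2D tumours, against 1276 and 1167 bp in KrasLA1 tumours, with overlap. Npat, the scaffold of the histone locus body, had 1171 and 962 bp in KrasLA1;Dicer1S2D tumours, against 1326 and 1211 bp in KrasLA1 tumours. Slbp, which binds the stem-loop of histone mRNA, had 800 and 869 bp in KrasLA1;Dicer1S2D tumours, against 1007 and 1013 bp in KrasLA1 tumours. Hinfp had 683 and 923 bp in KrasLA1;Dicer1S2D tumours, against 674 and 1064 bp in KrasLA1 tumours. Of 18 proliferation genes, 17 had a peak in all 4 libraries and Mcm4 had none in any. The median covered length of the 18 was 687 and 713.5 bp in KrasLA1;Dicer1S2D tumours, against 855.5 and 822 bp in KrasLA1 tumours, without overlap, and the part of proliferation in the values at histone genes was not tested.

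Most other genes of the interval were unmarked, chiefly in a stretch without histone genes. Of 47 other protein-coding genes in the interval, 36 are vomeronasal receptor genes, which serve pheromone sensing in sensory neurons. A peak within 2 kb was found at 0 of the 36 in any library. All 36 lie between H2bc11 and H4c8, a stretch that holds none of the member genes. Of the other 11, 5 had a peak in all 4 libraries, and Olfr1359, Pom121l2, Gm11295 and Trim38 had none in any. Btn1a1, a butyrophilin gene, had 0 and 0 bp in KrasLA1;Dicer1S2D tumours, against 214 and 379 bp in KrasLA1 tumours. Btn2a2 had 577 and 0 bp in KrasLA1;Dicer1S2D tumours, against 566 and 533 bp in KrasLA1 tumours.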

How the data were processed

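Lung tumours of 4 mice were compared, 2 KrasLA1;Dicer1S2D and 2 KrasLA1, grouped by the genotype in the labels. Library preparation, sequencing and primary analysis were done by the company Active Motif, per the labels' protocols. The deposited values are interval positions in mm10, per the file headers: peaks of each library and the authors' merged regions, with no count, score or p-value. Tools named without a role are deepTools 3.5.1, MACS3 3.0.0 and BWA 0.7.12, per the submitters' processing notes. The sources used here give no settings, peak threshold, filter on reads that match several places, shift for the transposase or read number.

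Peaks that shared at least 1 bp were merged, which gave the authors' 61972 regions again. Genes, starts and strands came from RefSeq for GRCm38.p6. Coordinates are counted from 1. Covered length is the bases under peaks in the gene plus 2 kb on both sides. Exact two-sided permutation tests were run on 1 value per library with scipy 1.17.1 in Python 3.11.15, and limma 3.58.1 in R 4.3.3 on log2 region width over autosomal regions called in all 4 libraries. The width test and the counting of covered bases were tested on simulated data. For the width test a pass was required only at a small spread between libraries. Recovery at the spread of these libraries is not reported here. The p-values measure the spread between these mice.

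The members, gene lists, motifs and tests were chosen with earlier results of these data known. Genes were named if a region followed genotype, if a peak was missing in at least 1 library, or for the longest and shortest covered length of a family; Npat, Slbp, Hinfp, H1f3, H3c2, H3c10, H3c4, H4c9, H4c11 and the 2 open pairs were added after their values were seen. Alternatives covered the distance to the gene, equal numbers of peaks, a minimum peak width, merging across gaps, centring, leaving out each library and a replicate block; counting a gene by its start inside a peak was chosen after seeing the data. The result of 1 marker gene is not reported here.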

Additional observations from a re-analysis of the deposited data

Results flagged for a closer look

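The number of histone genes with a peak within 2 kb moved in opposite directions in the sexes. In females the difference, KrasLA1;Dicer1S2D minus KrasLA1, was -4 genes (37 against 41), and in males it was 1 gene (37 against 36). There is 1 library per sex and genotype, sex and replicate number are the same division, and the difference between the sexes was not tested. The genes with a peak in the KrasLA1 female alone were H3c11 (178 bp), H1f6 (397 bp) and H4c3 (225 bp). H1f6 and H4c3 take in the same peak. H2bc9 and H3c7, which lacked a peak in the KrasLA1 male alone, also share a region, so these gene counts are not counts of separate peaks.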

How the results depend on the processing

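The difference in covered bases kept its sign in every alternative run, from -4743 to -2989 bp with 1 library left out, and none of the alternatives that could be tested had a p under 0.333. The difference in genes with a peak ran from -4 to 1 with 1 library left out and turned positive, 1, without KrasLA1 replicate 1. It was 0 with equal numbers of widest peaks, and -3.5 genes for overlap with the gene only, -2.5 within 5 kb and -2.5 for starts inside a peak. The count of regions in KrasLA1 alone was 0 with equal numbers of widest peaks and 2 with peaks of at least 200 bp, where the 191 bp peak at H1f5 was dropped, and ran from 1 to 5 with 1 library left out. The count in KrasLA1;Dicer1S2D alone ran from 0 to 1 with 1 library left out and was 0 in the other alternatives. Both counts follow a looser rule when 1 library is left out, and the share of all regions under it was not counted. For width, 0 regions passed in any alternative run, with 621 to 1554 regions at an unadjusted p under 0.05.

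The replicate numbers share only a number and a sex. Deviations of same-numbered libraries had a correlation of 0.12 over 26402 regions, and a fit with the replicate block called 0 regions (1192 at an unadjusted p under 0.05); the mean difference within replicate numbers was the same as the main one by construction, -1.5 genes and -3866 bp. With 1 library left out, the lone sample is assumed in limma to vary like the others. Unknown depth and threshold limit every absence of a peak.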

Other observations

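The same interval of chromosome 13 also holds 79 tRNA genes, which supply transfer RNAs for translation and are transcribed by RNA polymerase III. A peak overlapped 17 and 17 of them in KrasLA1;Dicer1S2D tumours, against 19 and 19 in KrasLA1 tumours, and 15 were overlapped in all 4 libraries. The share over tRNA genes elsewhere in the genome was not counted, so these values have no background beside them. Of the 64 merged regions in the interval, 32 lay at histone genes and 32 elsewhere. Of those elsewhere, 16 were within 500 bp of a tRNA gene, with a median width of 730.5 bp. Of these 16, 12 were called in all 4 libraries, against 43.5% of all autosomal regions. Of the 32 elsewhere, 1 was called in both KrasLA1;Dicer1S2D libraries alone, against 0.596% of autosomal regions. In both KrasLA1 libraries alone it was also 1, against 1.42%, and such small counts cannot be set apart from these shares. No test was run on these counts.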
